A study of Homo sapiens with 26 samples.

Results

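Panc10.05, an established line of human pancreatic ductal adenocarcinoma (PDAC), was given a doxycycline-inducible copy of the HNF4α isoform P2-a8, and its transcripts were compared with those of the same line carrying the negative control NC, whose sample titles name GFP. The P2-a8 group holds 2 libraries from cells under 12.5 ng/mL doxycycline, and the NC group holds 2 libraries from cells under 25 ng/mL. These 4 libraries, of the 26 in the study, were chosen by their labels alone. A further 2 Panc10.05 libraries with the isoform P1-a2 under 25 ng/mL, and 4 libraries of the PDAC line BxPC3 (P2-a8 and the empty-vector control, 2 each, all under 500 ng/mL), served to show where the response differs. The fits that include BxPC3 also held 2 libraries with P1-a2 (500 ng/mL), which entered the filter, the scaling and the estimate of the spread and no comparison. Doxycycline was present in every group, but at a lower concentration in P2-a8 than in NC, so the isoform and the dose cannot be told apart within Panc10.05. RNA was selected by poly(A), and whole-transcriptome reads were counted per gene.

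The 4 libraries held 34618745 to 46827673 gene counts each. The labels do not say whether replicates came from separate cultures, whether a line was a clone or a pool, or how long induction lasted, so p-values measure the spread between these libraries, which may be technical. Between the 2 libraries of a group the counts differed by more than sampling noise (chi-square per degree of freedom 5.08 in P2-a8 and 7.68 in NC), so no library was a copy of another. Values are CPM (counts per 1000000, that is gene counts relative to the library total, scaled by edgeR's TMM factors), differences are log2 fold changes of P2-a8 over NC with their standard errors (SE), and adjusted p-values are Benjamini-Hochberg values of edgeR's quasi-likelihood test over the 17247 genes tested. A gene was called where the adjusted p was under 0.05. In such bulk samples, fewer cells of a type and less of a transcript per cell cannot be told apart. Total RNA per cell was not measured, so CPM gives a relative level and not an amount per cell.

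HNF4α is an orphan nuclear receptor that binds DNA as a homodimer and drives the gene programmes of hepatocytes, enterocytes and kidney tubules. Its gene has 2 promoters: P1 transcripts predominate in adult liver and P2 transcripts in the developing gut and pancreas, and the resulting proteins differ at their amino terminus. In liver and gut its known targets include apolipoproteins, clotting factors, drug-metabolising enzymes, membrane transporters and components of the brush border. In pancreatic cancer, HNF4α is among the factors of the classical, gut-like subtype.

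The labels were checked first against the induced gene and against cell type markers. HNF4A (chromosome 20, 44355700 to 44434596) stood at 37.6 CPM in both P2-a8 libraries and at 0.240 and 0.0580 CPM in the NC libraries, which is 1762 and 1336 raw counts against 10 and 2. The gene was thus close to silent in the control and high in both induced libraries (log2 fold change 7.87, SE 0.20, adjusted p = 1.98e-29, edgeR's quasi-likelihood test). Gene counts do not separate the introduced from the endogenous transcript. Its paralog HNF4G measured 9.44 and 9.04 CPM against 8.12 and 7.27 CPM, a difference that did not pass the test (adjusted p = 0.0721, edgeR's quasi-likelihood test). The antisense gene HNF4A-AS1 had 6 and 1 counts in P2-a8 and 0 in both NC libraries, too few to test. All 10 tested genes of a list of 12 ductal epithelial markers were called higher in P2-a8, beside 23.7% of all genes tested, with a summed level of 9747 and 10240 CPM against 5933 and 5993 CPM, so the cells carried epithelial markers in both groups. Too low to test were CFTR, with 11 and 2 counts against 6 and 1, and TSPAN8, with 13 and 8 against 0 and 4. Defining markers of other pancreatic and stromal cells were at or near 0: INS, GCG, SST, PNLIP, PRSS1, DCN, LUM, PTPRC and CD3E had no count in any of the 4 libraries. The summed levels of the other marker lists were low in both groups: 1.22 and 1.41 CPM against 1.90 and 2.03 for 12 acinar genes, 7.22 and 7.89 against 10.9 and 11.7 for 12 endocrine genes, and 7.93 and 8.17 against 6.20 and 6.78 for 12 fibroblast genes. They were 9.38 and 9.24 CPM against 7.21 and 7.27 for 12 immune genes and 31.1 and 27.9 against 18.8 and 20.4 for 10 endothelial genes.

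The word CAAAGTCCA is the core of the preferred HNF4 binding site, and it stands just before an annotated start of several of the genes that rose. The stretches shown here are from the 5 genes of largest rise that met the expression rule for naming a gene (a mean of at least 5 CPM, called, groups not overlapping) and held the word upstream of a start. They come from the RefSeq promoter table of GRCh38.p14 (windows from 250 bases before to 50 after a start), are written 5′ to 3′ along the gene's strand, and carry the word in capitals, either as CAAAGTCCA or, where it lies on the other strand, as TGGACTTTG. SLCO2B1 encodes an organic anion transporter (word 69 bases before the start, chr11:75159753-75159781, plus strand). That start lies inside the gene's annotated span (75100563 to 75206549), and the stretches of SLCO2B1 and PDZK1 overlap an annotated exon. PDZK1 encodes a scaffold of brush border transporters (37 bases before, chr1:145707387-145707415, minus strand). GPR35 encodes a G-protein-coupled receptor of the gut (35 bases before, chr2:240605355-240605429, plus strand), SDCBP2 encodes syntenin-2 (21 bases before, chr20:1313674-1313734, minus strand), and LBX2-AS1 is a non-coding RNA (49 bases before, chr2:74502504-74502592, plus strand).
SLCO2B1: gcacaggctgTGGACTTTGccctccacaa
PDZK1: aatctttgttCAAAGTCCAgtgagttgca
GPR35: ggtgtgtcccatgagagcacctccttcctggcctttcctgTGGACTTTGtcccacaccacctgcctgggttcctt
SDCBP2: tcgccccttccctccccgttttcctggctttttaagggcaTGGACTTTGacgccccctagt
LBX2-AS1: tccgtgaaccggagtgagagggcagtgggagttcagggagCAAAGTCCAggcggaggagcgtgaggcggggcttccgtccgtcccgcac

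A pair of related words, CAAAGTTCA and CAAAGGTCA, was searched on both strands of the same windows. One stretch with each is shown, chosen after the values were seen because the genes encode abundant liver-type secreted proteins: SELENOP, the selenium carrier of plasma (74 bases before the start, chr5:42811948-42811976, minus strand), and VTN, vitronectin (98 bases before, chr17:28370387-28370415, minus strand). The capitals give the words' other strand, TGAACTTTG and TGACCTTTG. Both stretches overlap an annotated exon, and the SELENOP start lies inside the gene's annotated span.
SELENOP: gaatgaacatTGAACTTTGgactatacct
VTN: tccaggaatgTGACCTTTGctgcagcagc

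Over all 35116 promoter windows, 0.384% held CAAAGTCCA, and over the windows of all tested genes the share was 0.393%. Among genes at least 2-fold higher in P2-a8 it was 1.53% (17 of 1113 windows, in 15 genes), and among genes at least 2-fold lower it was 0 of 425 windows. Without a limit on fold change the share among genes called higher was 0.582%. CAAAGTTCA was held by 0.296% of all windows, 0.206% of those of tested genes, 0.629% (7 windows) of the genes at least 2-fold higher and 0.235% (1 window) of those at least 2-fold lower. For CAAAGGTCA these shares were 0.407%, 0.302%, 0.988% (11 windows) and 0.471% (2 windows). No window of the raised genes held more than 1 of the 3 different words, and together they were in 35 of the 1113 windows (32 genes), so most of the raised genes carry none of these letters within the window. A match is a description of the letters and was not tested.

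The 5 genes shown above with CAAAGTCCA rose to different extents. SLCO2B1 measured 16.7 and 16.5 CPM in P2-a8 and had at most 3 counts in each NC library (0.0240 and 0.0580 CPM), which makes it at least 209-fold higher. PDZK1 measured 13.7 and 13.5 CPM against 0.192 and 0.232 CPM (log2 fold change 6.0, SE 0.21). GPR35 stood at 49.9 and 50.5 CPM against 8.26 and 7.48 CPM (2.67). The other two had smaller differences, SDCBP2 at 68.6 and 66.9 CPM against 22.6 and 18.3 CPM (1.72) and LBX2-AS1 at 12.3 and 15.3 CPM against 4.42 and 6.0 CPM (1.41).

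The response was broad but shallow, with a deep minority made up mostly of rises. Of 17247 genes tested, 7973 were called (46.2%), 4087 higher (23.7%) and 3886 lower (22.5%). Most of the calls, 6310 (79.1%), were differences of under 2-fold, and the median size over all called genes was 0.46 on the log2 scale. At 2-fold or more, 1176 genes were higher (6.82% of those tested) and 487 lower (2.82%), so that 70.7% of these larger calls were rises. At 4-fold or more the counts were 585 and 99, and at 16-fold or more 180 and 10. The median log2 fold change over all genes tested was 0.0005.

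The larger rises began from low levels. The median level in NC of the genes at least 2-fold higher was 0.287 CPM, and they reached a median of 1.28 CPM. The median of the genes at least 2-fold lower was 2.11 CPM in NC and 0.712 CPM in P2-a8, against 14 CPM for all tested genes in NC. Under 1 CPM in NC were 860 (73.1%) of the genes at least 2-fold higher and 159 (32.7%) of those at least 2-fold lower, beside 24.9% of all tested genes. These levels and shares are partly set by the filter on low counts. A gene silent in NC was tested only where P2-a8 or P1-a2 expressed it, and a gene can fall only if NC expresses it. Going from at most 3 counts in each NC library to at least 1 CPM in both P2-a8 libraries were 29 genes, among them TMEM176B, APOBEC1, APOA4, CYP1A2, HPD, MOGAT2, GLYAT and AGT. Only 3 genes went the opposite way by the same measure.

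Position on the chromosome moved with the sign of the small differences. Among protein-coding genes with a mean of at least 10 CPM, 4 stretches had 20-Mb windows with a median log2 fold change of at least 0.35: chromosome 1 from 140 Mb to its end (median 0.43), chromosome 2 from 0 to 80 Mb (229 genes, 0.42), chromosome 16 from 60 Mb to its end (147 genes, 0.40) and chromosome 18 from 0 to 20 Mb (37 genes, 0.40). Of these 805 genes 693 were called higher (86.1%) and 17 lower, while of the other 8297 genes 20.9% were higher and 33.5% lower, with a median of −0.06. The same genes had a median of 0.57 in P1-a2 against the same NC libraries, 0.02 in BxPC3 and −0.12 in P2-a8 against P1-a2. Chromosome 19 lay on the other side, with a median of −0.26 over 630 genes (417 called lower, 48 higher). Its median was −0.09 in P1-a2 against the same NC libraries, 0.04 in BxPC3 and −0.18 in P2-a8 against P1-a2. In 5 equal bins by GC content of the transcripts, its median was −0.07 in the lowest (27 genes) and −0.30 in the highest (385 genes). On the other chromosomes these were 0.05 and −0.06, and the part of GC content was not tested. Copy number was not measured, and its part in these differences was not tested. A group's count without these genes is given where it differs by over 1.5 times, and over all tested genes outside them 3127 were higher and 3842 lower.

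**Figure D1:**
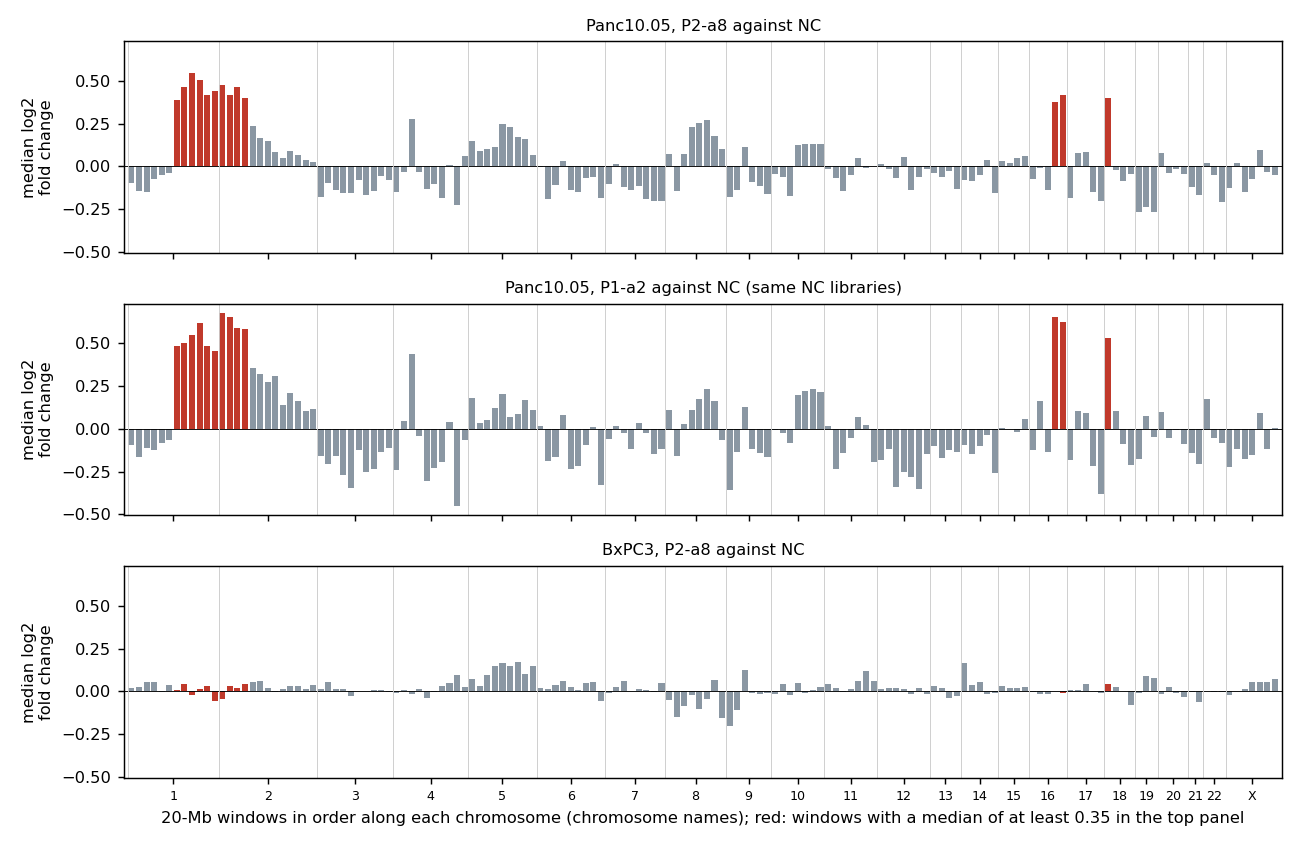
Median log2 fold change of protein-coding genes in 20-Mb windows along the chromosomes (y axis, log2 scale) for P2-a8 against NC in Panc10.05, P1-a2 against NC in Panc10.05, and P2-a8 against the empty vector in BxPC3; each bar or point is 1 window and red marks windows with a median of at least 0.35. The raised windows of chromosomes 1, 2, 16 and 18 stand out in both Panc10.05 panels, which share the NC libraries, while the BxPC3 windows lie near 0 (their standard deviation is 0.0541, against 0.178 for P2-a8 in Panc10.05).

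The largest rises among genes with a mean of at least 5 CPM were in secreted lipoproteins, brush border proteins and transporters, beside genes outside these groups. ZC3H12B, an RNase of the regnase family (chromosome X, 65366638 to 65507887), measured 35.4 and 39.6 CPM in P2-a8 and had no count in either NC library, nor in P1-a2 or any BxPC3 library. It was at least 471-fold higher (adjusted p = 1.35e-30, edgeR's quasi-likelihood test), and the pseudogenes TLE1P1 and AP1M2P1 overlap it on the same strand. HHLA2, a B7-family ligand of T and natural killer cells (chromosome 3, 108296490 to 108378285), stood at 27.8 and 29.1 CPM against 0.0240 and 0 CPM and was at least 358-fold higher. Both were high in each P2-a8 library and at or near 0 in each control.

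Apolipoprotein genes were among the largest rises. APOA1, the main protein of high-density lipoprotein (chromosome 11, 116835751 to 116837950), measured 35.7 and 35.5 CPM against 0 and 0.145 CPM (log2 fold change 9.01, SE 0.77, adjusted p = 0.00265, edgeR's quasi-likelihood test). APOA2, its partner (chromosome 1, 161222292 to 161223631), measured 22.0 and 11.5 CPM against 0.0240 and 0 CPM and was at least 211-fold higher. Its P2-a8 libraries differed from each other, and the call (adjusted p = 0.00851) ended without NC replicate 1 (0.0766) or NC replicate 2 (0.0733), all by edgeR's quasi-likelihood test. SELENOP (chromosome 5, 42799880 to 42887392) rose from 1.37 and 1.07 to 41.2 and 39.2 CPM (5.03, SE 0.12, adjusted p = 8.58e-32, edgeR's quasi-likelihood test). Both groups of SELENOP values were tight beside the distance between them.

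VIL1, which encodes the microvillus actin bundler villin (chromosome 2, 218419092 to 218453295), stood at 23.1 and 24.1 CPM against 0.168 and 0.0580 CPM (log2 fold change 7.61, SE 0.20). SLC15A1, the intestinal peptide transporter PepT1 (chromosome 13, 98683801 to 98752654), stood at 40.7 and 45.3 CPM against 2.40 and 2.0 CPM (4.28). CAPN8, a calpain of the gastric and gut lining, measured 19.6 and 20.3 CPM against 0.745 and 0.840 CPM (4.66). In each case the control level was low but present. G0S2, an inhibitor of triglyceride lipase, measured 13.3 and 9.38 CPM against 0.865 and 0.522 CPM (4.01). GLUL, glutamine synthetase, measured 16.3 and 12 CPM against 1.06 and 0.695 CPM (4.0), and SLFN11, a DNA damage factor, 14.2 and 12.3 CPM against 1.15 and 1.04 CPM (3.59). The remaining gene of the 15, the host RNA MIR4280HG, rose by 4.28 on the log2 scale.

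The largest falls were smaller than the largest rises. They began from higher levels, but the limit of 5 CPM on the mean partly sets this, since a falling gene meets it only by its level in NC. SPOCK1, a matrix proteoglycan, measured 0.876 and 0.958 CPM against 16.2 and 19.1 CPM (log2 fold change −4.27, SE 0.17, adjusted p = 3.33e-24, edgeR's quasi-likelihood test). ZBTB32, a zinc finger repressor, measured 3.70 and 2.51 CPM against 41.0 and 44.6 CPM (−3.76). IL7R, the receptor chain for interleukin-7 (chromosome 5, 35852695 to 35879603), measured 26.3 and 20.2 CPM against 184 and 188 CPM (−2.99). IGFBP6, an IGF-II binding protein (chromosome 12, 53097436 to 53102345), measured 61.2 and 60 CPM against 386 and 423 CPM (−2.74). EMP3, an epithelial membrane protein, fell by 2.73 on the log2 scale. IFITM1, an antiviral membrane protein, measured 8.63 and 12.1 CPM against 50.8 and 63.7 CPM (−2.48). CGB5, RAET1L and IFITM1 have near-identical relatives, so their counts are uncertain. Others among the largest falls were FAXDC2, UPK3B, PLEKHA4, HTRA1, LYPD3 and PPM1K, each falling by 2.06 or more.

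**Figure D2:**
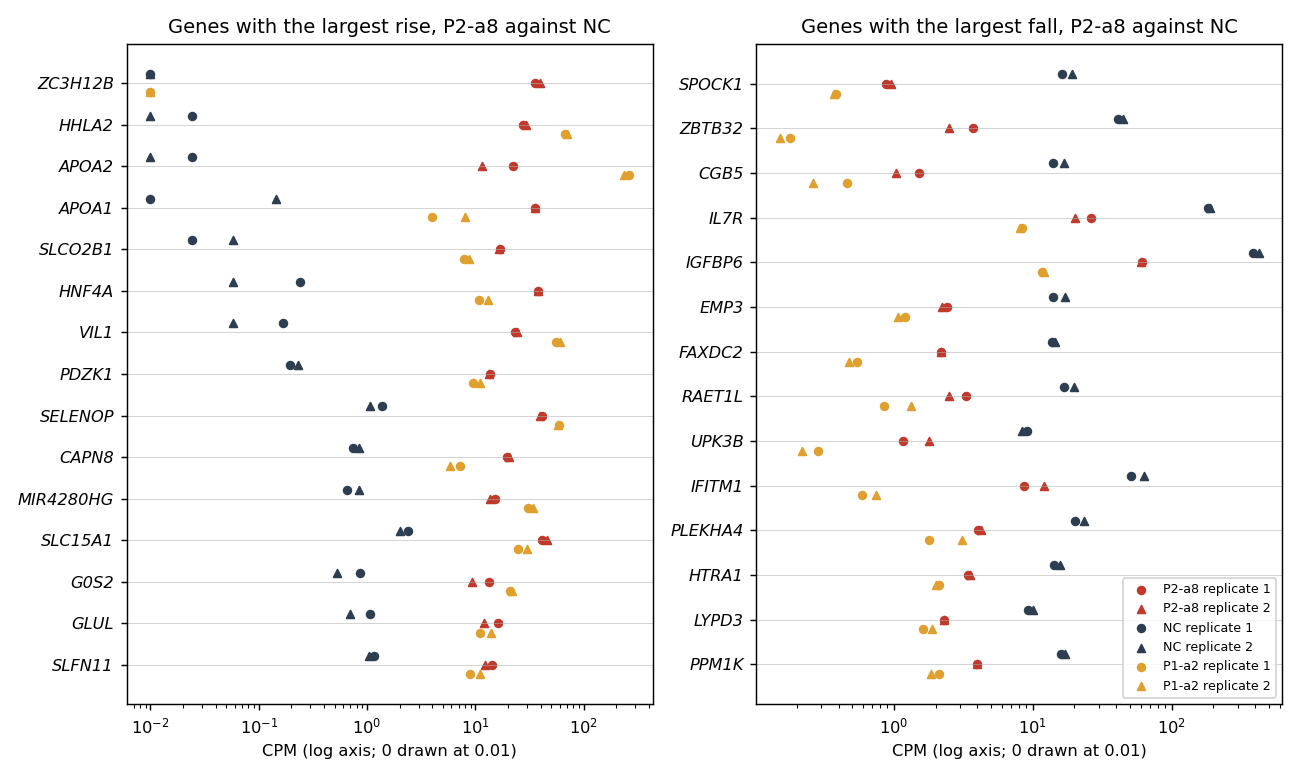
Expression in CPM (log axis, 0 drawn at 0.01) of the 15 largest rises and 14 of the 15 largest falls of P2-a8 against NC in Panc10.05, with 1 point per library (2 each for P2-a8, NC and P1-a2). Rising genes start low in NC, some near 0 as HHLA2 does (27.8 and 29.1 CPM against 0.0240 and 0) and others higher, as SLC15A1 (2.40 and 2.0 CPM in NC). Falling genes end at varied levels in P2-a8, such as IGFBP6 (61.2 and 60 CPM against 386 and 423) and SPOCK1 (0.876 and 0.958 CPM against 16.2 and 19.1).

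The lists that follow group genes by role, and their counts stand beside 23.7% higher, 22.5% lower and a median of 0.0005 among all genes tested. A gene silent in NC could enter the test only through a group where it was expressed, so in lists with many silent genes (liver, gut and classical genes) the share of rises is partly set by the filter on low counts. In every list the members were chosen with results of these data known, and the counts are a description.

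The transcription factors that work with HNF4α in liver and gut rose in part. Of 33 listed factors (HNF4 genes included) 22 were tested, 12 were higher and 2 lower, with a median log2 fold change of 0.32. ONECUT2, a partner in liver and pancreas development, measured 31.8 and 30.7 CPM against 4.44 and 4.32 CPM (2.83, adjusted p = 1.8e-24, edgeR's quasi-likelihood test). CREB3L3, an activator of apolipoprotein genes, rose by 3.37 on the log2 scale. FOXA3 fell by 1.6. Neither GATA6, a factor of classical PDAC (−0.03, adjusted p = 0.885), nor FOXA2 (0.26, adjusted p = 0.542) passed edgeR's quasi-likelihood test. MLXIPL, the glucose-sensing factor ChREBP, rose from 0.961 and 0.927 to 7.43 and 8.40 CPM (3.06).

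Among 28 tested nuclear receptors and partners, 14 were higher, 5 of them at least 2-fold, and 6 lower (median 0.33). NR2F2, also called COUP-TFII, measured 153 and 157 CPM against 83.3 and 85.7 CPM (0.88). NR1I3, the xenobiotic receptor CAR, measured 0.919 and 0.817 CPM and was at most 3 counts in each NC library, at least 10.9-fold higher. PPARGC1A, a coactivator of fasting metabolism, rose by 1.89.

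Genes of lipoprotein export and fat absorption were called in both directions. Of 47 listed genes 30 were tested, of which 15 (50%) were higher, 13 of them at least 2-fold, and 8 lower, 1 of them at least 2-fold, with a median of 0.95 (without NC replicate 2 the lower count was 5). Among the 11 tested apolipoproteins 5 were higher and 3 lower, or 3 and 3 outside the raised chromosome stretches (median 0.88 for all 11 and 0.16 outside). APOA4, made by enterocytes, measured 2.67 and 2.23 CPM with no NC count (at least 30.8-fold higher), and APOC3, an inhibitor of lipoprotein lipase, 1.54 and 0.873 CPM with no NC count (at least 15.2-fold). MOGAT2, which rebuilds triglyceride in enterocytes, measured 1.56 and 1.10 CPM with no NC count (at least 16.7-fold). CIDEB, a lipid droplet protein of lipoprotein-secreting cells, rose from 0.120 and 0.0869 to 5.11 and 4.39 CPM (5.47). The structural protein of the large lipoproteins stayed low: APOB measured 0.0855 and 0.282 CPM, at least 2.31-fold above NC, and this call ended without P2-a8 replicate 2 (adjusted p = 0.0818, edgeR's quasi-likelihood test). MTTP, which loads lipid onto it, had 1 and 0 counts in P2-a8 and 0 and 5 in NC. FABP1, FABP2, TM6SF2 and APOC2 had no count in any of the 4 libraries. SCARB1, the receptor for high-density lipoprotein, measured 47.5 and 48.0 CPM against 24.5 and 25.1 CPM (0.94). Falls included APOL1, which lyses trypanosomes, at 39.2 and 33.2 CPM against 47.6 and 51.3 CPM (−0.44), and PLIN2, the coat protein of lipid droplets, at 1.39 and 1.13 CPM against 2.16 and 2.40 CPM (−0.84).

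Most tested genes of the brush border, the carpet of microvilli on absorptive cells, were higher. Of 30 tested genes (43 listed) 20 (66.7%) were higher, 17 of them at least 2-fold, and 2 lower, with a median of 1.62, or 1.35 with genes at the count floor set at their bound. EPS8L3, a relative of the actin-capping protein EPS8, measured 4.44 and 4.54 CPM against 0.0961 and 0.0290 CPM (6.03). MYO7B, the motor of the intermicrovillar adhesion complex, measured 7.20 and 7.16 CPM against 1.23 and 1.94 CPM (2.20), and USH1C, its scaffold, was at least 8.82-fold higher. ESPN, the actin bundler espin, rose by 3.27. NHERF1, the abundant apical PDZ scaffold, measured 253 and 253 CPM against 148 and 153 CPM (0.75). MYO5B, which carries apical vesicles, fell from 134 and 128 to 101 and 105 CPM (−0.35). Among hydrolases 7 of 10 tested genes were higher and none lower, and GGT1, a glutathione-cleaving enzyme of the cell surface, rose by 2.94. The defining disaccharidase SI and the cadherin CDHR5 had no count in any of the 4 libraries.

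Membrane transporters rose more often than they fell. Of 26 tested solute carriers 17 were higher, 10 of them at least 2-fold, and 4 lower (median 0.54). SLC7A7, the basolateral exporter of dibasic amino acids, measured 7.48 and 7.41 CPM against 0.120 and 0.0290 CPM (6.51). SLC2A3, a glucose transporter, rose by 3.72. Of 8 tested ABC transporters 2 were higher and 3 lower. ABCG2, a multidrug exporter, measured 3.44 and 2.79 CPM against 0.312 and 0.261 CPM (3.43), and ABCA1, which loads lipid onto APOA1, fell from 92.7 and 81.4 to 33.7 and 37.8 CPM (−1.29).

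Plasma proteins of the liver rose in part and mostly at low levels. Of 70 listed genes 42 were at or under 3 counts in all 4 libraries, and of the 20 tested 12 were higher, 8 of them at least 2-fold, and 2 lower. The second of these counts was 0 or 1 in 9 of the alternatives, and so rests on small differences. ALB, the main plasma protein, had 5 and 5 counts in P2-a8 and 0 and 1 in NC. TTR, FGA, SERPINA3, HP and ORM1 had no count in the 4 libraries. C3, the central complement component, measured 46.5 and 41.1 CPM against 4.23 and 3.19 CPM (3.55, adjusted p = 1.33e-05, edgeR's quasi-likelihood test). VTN stood at 5.68 and 6.31 CPM against 0.0961 and 0 CPM (6.75). PROS1, the anticoagulant protein S, measured 111 and 104 CPM against 69.0 and 67.5 CPM (0.66). SERPINA1, alpha-1-antitrypsin, measured 39.7 and 41.0 CPM against 45.5 and 47.3 CPM (−0.20, adjusted p = 0.0292). That call ended by DESeq2 (adjusted p = 0.0624) and without either P2-a8 library or NC replicate 2 (0.0674 to 0.166, edgeR's quasi-likelihood test). As a marker set, 15 hepatocyte genes summed to 99.9 and 90.2 CPM against 49.1 and 52.3 CPM with 7 at the count floor. Of the 5 tested, 3 were higher and 2 lower. SERPINA1 made up most of the NC sum, and APOA1 (35.7 and 35.5 CPM in P2-a8) and APOA2 (22.0 and 11.5 CPM) accounted for the higher P2-a8 sum. A set of 14 enterocyte genes summed to 26.7 and 27.3 CPM against 0.504 and 0.782 CPM with 6 at the floor, among them CDX1, CDX2, FABP1 and SI with no count. VIL1 alone made up 23.1 and 24.1 CPM of that sum and APOA4 2.67 and 2.23 CPM.

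Enzymes of detoxification and amino acid metabolism also moved mostly upward. Of 13 tested cytochrome P450 genes 5 were higher and 3 lower, and of 16 conjugation genes 9 were higher and none lower (median 0.91). CYP1A2 measured 1.97 and 2.28 CPM with no NC count (at least 26.7-fold higher), and CYP2S1 32.0 and 32.5 CPM against 9.39 and 9.53 CPM (1.77), while CYP1B1 fell by 1.67. CES2, a carboxylesterase that activates prodrugs, measured 88.1 and 86.0 CPM against 35.7 and 37.1 CPM (1.26). CYP3A4 had no count in the 4 libraries. Among 18 amino acid and urea genes 9 were higher and 3 lower: ASS1, which makes argininosuccinate, measured 15.9 and 16.9 CPM against 2.06 and 3.01 CPM (2.71), and HPD of tyrosine breakdown was at least 21.6-fold higher. CPS1, the entry enzyme of the urea cycle, went the other way, at 0.555 and 0.789 CPM against 3.48 and 4.61 CPM (−2.60). All 8 tested genes of gluconeogenesis and fructose use were called, 5 higher (3 outside the raised stretches) and 3 lower, and PCK1, the rate-limiting step of glucose synthesis, was at least 6.23-fold higher from no NC count (adjusted p = 0.289 by DESeq2).

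Lipid synthesis rose slightly on its cholesterol arm. Of 24 cholesterol genes 15 were higher and 1 lower, none by 2-fold (median 0.27). SQLE, squalene epoxidase of that pathway, measured 174 and 195 CPM against 101 and 97.7 CPM (0.90). Fatty acid synthesis was mixed, with 7 of 19 genes higher and 5 lower (3 lower without P2-a8 replicate 1 or NC replicate 1). SREBF1, a master factor of lipid synthesis, fell from 131 and 129 to 52.9 and 61.3 CPM (−1.19), while FADS1, a desaturase of polyunsaturated fatty acids, rose from 3.60 and 4.81 to 25.1 and 27.4 CPM (2.65). In fatty acid oxidation 14 of 36 genes were higher and 4 lower (9 higher without P2-a8 replicate 1). CPT1A, its gatekeeper at the mitochondrion, rose from 16.1 and 14.3 to 46.6 and 42.6 CPM (1.55).

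Most of the few measurable classical PDAC genes were higher, and basal-like genes moved both ways. Of 27 classical genes 13 were at the count floor in all 4 libraries and 8 were tested, with 7 higher, 6 of them at least 2-fold, and none lower. The one that did not pass was GATA6, given above. CTSE, cathepsin E, rose by 1.21, CEACAM6 by 1.73 and CLRN3 by at least 17.7-fold, whereas the defining secreted genes TFF2 and REG4 had no count. Of 21 basal-like genes 8 were higher and 7 lower (4 lower without P2-a8 replicate 2). KRT17, a basal keratin, measured 2.80 and 3.41 CPM against 9.05 and 8.90 CPM (−1.54), and FGFBP1, a carrier of FGF, fell by 1.77. SCEL, a component of the cornified envelope, rose by 1.37 and SPRR3, another, by 4.52.

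Simple epithelial keratins and junction genes were higher. KRT8 measured 3998 and 4171 CPM against 2096 and 2109 CPM (0.96) and its partner KRT18 rose by 0.92. Of 38 tested junction genes 29 (76.3%) were higher and 1 lower (median 0.42), and outside the raised chromosome stretches 21 were higher and 1 lower. CDH1, E-cadherin, measured 211 and 229 CPM against 161 and 145 CPM (0.52), CDH3, P-cadherin, 43.4 and 47.2 CPM against 14.8 and 14.7 CPM (1.62), and CLDN3, a tight junction claudin, 23.6 and 27.5 CPM against 11.8 and 10.5 CPM (1.19). CDH1 and CDH3 lie in the raised stretch of chromosome 16, whose median was 0.40, so the CDH1 difference was near that of its stretch. The single lower call was lost without P2-a8 replicate 1, P2-a8 replicate 2 or NC replicate 1. Of 8 tested mucins 5 were higher and none lower (1 lower with no filter, with the replicate block or without P2-a8 replicate 2). MUC13, a gut membrane mucin, measured 123 and 114 CPM against 83.1 and 79.6 CPM (0.55), and MUC16, which carries the CA125 antigen, rose by 1.68.

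Mesenchymal genes split, with 8 of 21 higher and 7 lower. VIM, vimentin, fell by 1.07 on the log2 scale, TNC, the matrix protein tenascin C, by 1.56 and AXL, a receptor kinase, by 0.44. CAV1, caveolin-1, measured 205 and 218 CPM against 395 and 410 CPM (−0.93). Among 30 laminin, integrin and collagen genes 19 were higher and 5 lower, and ITGA1, a collagen-binding integrin, measured 55.3 and 52.0 CPM against 16.6 and 17.2 CPM (1.67). ADAM19, a membrane protease, rose from 0.384 and 0.406 to 8.14 and 7.41 CPM (4.30).

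Signalling genes showed no single direction. In the TGF-beta and BMP list 15 of 27 were higher, 8 at least 2-fold, and 7 lower (median 0.33). Outside the raised stretches 11 were higher and 7 lower (median 0.07). PMEPA1, a feedback inhibitor, measured 26.9 and 30.8 CPM against 4.95 and 4.20 CPM (2.65), and the ligand chain INHBA rose by 2.61, while ID1, a BMP target, fell by 0.60. Of 22 YAP and TEAD targets 9 were higher and 7 lower (4 lower without P2-a8 replicate 1), and CCN1 among them fell from 861 and 928 to 371 and 396 CPM (−1.22). DKK1, a secreted Wnt inhibitor, fell from 330 and 324 to 129 and 114 CPM (−1.43), with 7 higher and 7 lower over 26 Wnt genes. Of 31 EGF and FGF genes 14 were higher and 7 lower. MET, the receptor for hepatocyte growth factor, fell from 655 and 561 to 390 and 386 CPM (−0.65). IRS1, the insulin receptor substrate, rose from 20.3 and 17.6 to 39.8 and 42.5 CPM (1.11).

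Genes of the hypoxia response were mostly higher, and the labels name no change of oxygen. Of 22 tested HIF targets 17 (77.3%) were higher, 8 at least 2-fold, and 1 lower, with a median of 0.48. CA9, a carbonic anhydrase and marker of hypoxia, measured 3.01 and 3.07 CPM against 0.216 and 0.319 CPM (3.52). VEGFA, the vascular growth factor, measured 110 and 124 CPM against 53.1 and 49.9 CPM (1.18). EPAS1, which encodes HIF-2α, rose from 98.0 and 92.1 to 254 and 250 CPM (1.41, adjusted p = 1.42e-22, edgeR's quasi-likelihood test). EGLN3, an oxygen-sensing hydroxylase, rose by 3.03. The lower call did not pass without P2-a8 replicate 1 or without NC replicate 1. Glycolysis moved less, with 9 of 21 genes higher and 5 lower. In iron handling 12 of 19 genes were higher and 3 lower (1 lower by DESeq2, without P2-a8 replicate 1 or without NC replicate 1), and HEPH, the iron oxidase of enterocytes, was at least 12.8-fold higher.

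**Figure D3:**
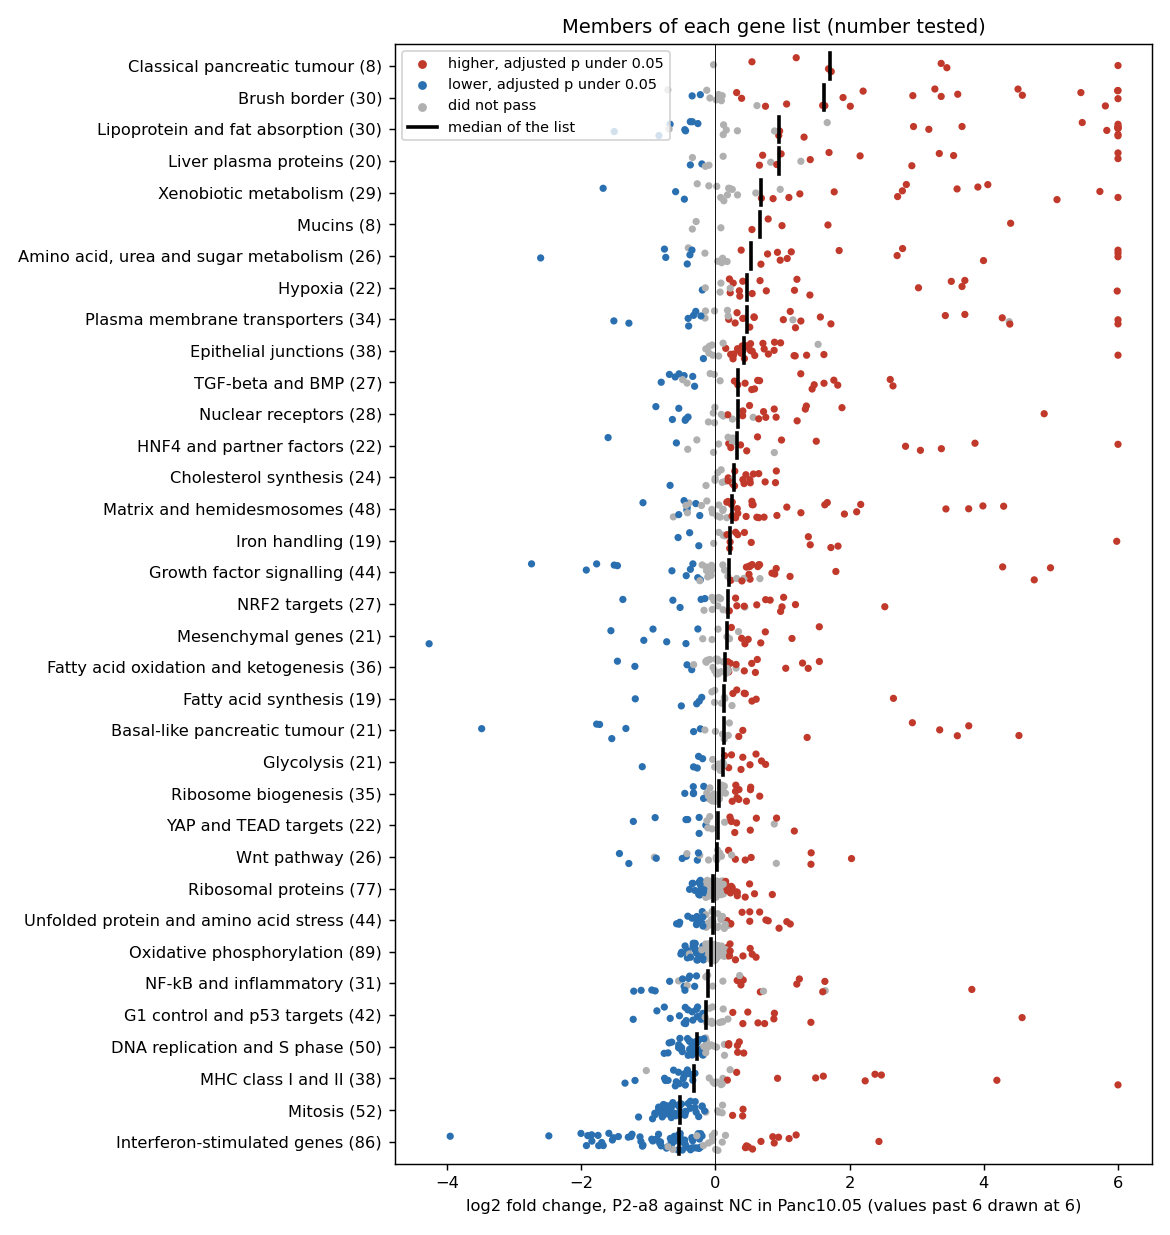
Log2 fold change of P2-a8 against NC in Panc10.05 (x axis; values past 6 drawn at 6) for each tested member of each gene list (rows), with red for called higher, blue for called lower and grey for not passed; the black bar is the list's median. Brush border genes (median 1.62) and lipoprotein genes (0.95) lie to the right, all interferon-stimulated genes (−0.54) and mitosis genes (−0.53) to the left, and ribosomal protein genes (−0.03) around 0.

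Most interferon-stimulated genes, which cells switch on against viruses, fell. Of 60 tested effectors and sensors 48 were lower, 20 of them at least 2-fold, and 5 higher, with a median of −0.71. ISG15, a ubiquitin-like modifier, measured 162 and 139 CPM against 501 and 579 CPM (−1.84, SE 0.07, adjusted p = 8.88e-18, edgeR's quasi-likelihood test). IFIT3, which works with the RNA-binding IFIT1, measured 266 and 235 CPM against 735 and 860 CPM (−1.67), and OASL, a relative of the RNA-sensing OAS enzymes, 156 and 135 CPM against 489 and 554 CPM (−1.84). MX1, the antiviral GTPase, measured 36.8 and 38.8 CPM against 82.5 and 98.0 CPM (−1.26). In each case both P2-a8 libraries lay below both controls. Among signalling genes and factors 14 of 26 were lower and 6 higher, and IRF9, a factor that carries the interferon signal, measured 7.41 and 7.27 CPM against 16.4 and 15.6 CPM (−1.12). IFNL1, a type III interferon, measured 0.0641 and 0 CPM against 0.576 and 0.637 CPM, at least 8.17-fold lower, while its receptor chain IFNLR1 rose from 4.88 and 5.56 to 10.2 and 12.2 CPM (1.10). LAMP3, of the lysosome in dendritic cells, was among the effectors that rose, from 21.1 and 17.1 to 34.1 and 36.3 CPM (0.88). Isoform, doxycycline dose and control construct differ together here and cannot be told apart.

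Genes that present peptides on MHC class I fell with them, by less. Of 23 tested 16 were lower and 1 higher (median −0.46). HLA-B measured 1117 and 1202 CPM against 1948 and 1932 CPM (−0.74), with the usual uncertainty of assigning reads among HLA genes, and B2M, the shared light chain, 990 and 888 CPM against 1355 and 1393 CPM (−0.55). PSMB9, an immunoproteasome subunit, fell by 1.20 and NLRC5, the class I transactivator, by 0.62. The checkpoint ligand CD274 measured 95.1 and 90.4 CPM against 161 and 153 CPM (−0.76). Class II and checkpoint genes went mostly upward, with 9 of 15 higher and 3 lower; over class I and II together the higher count of 10 was 6 by DESeq2 and 5 without P2-a8 replicate 2. CD74, the class II invariant chain, measured 10.8 and 9.61 CPM against 2.02 and 1.62 CPM (2.47), with CIITA, the class II transactivator, at 0.10 (adjusted p = 0.887, edgeR's quasi-likelihood test). LGALS9, galectin-9, rose from 2.33 and 1.85 to 10.5 and 11.5 CPM (2.38). Of 31 inflammatory NF-kB genes 10 were higher (6 without P2-a8 replicate 1) and 12 lower.

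Cell division genes were lower by small amounts that recurred over nearly the whole list. Of 52 mitosis genes 44 (84.6%) were lower and 3 higher (median −0.53). The 3 higher genes, CENPF, ASPM and KIF14 (the last with adjusted p = 0.134 by edgeR without P2-a8 replicate 1), all lie in the raised stretch of chromosome 1, and outside the stretches 42 were lower and 0 higher (median −0.59). MYBL2, a factor that switches on mitotic genes, measured 39.4 and 38.6 CPM against 86.1 and 86.3 CPM (−1.14, adjusted p = 2.31e-17, edgeR's quasi-likelihood test). BIRC5, survivin, measured 136 and 134 CPM against 249 and 269 CPM (−0.94), and PLK1, a mitotic kinase, 82.8 and 78.1 CPM against 141 and 148 CPM (−0.85). CCNB1, the mitotic cyclin, fell from 470 and 521 to 314 and 315 CPM (−0.66). MKI67, the proliferation marker, moved little, at 629 and 655 CPM against 762 and 709 CPM (−0.20), and its call ended without P2-a8 replicate 1 (adjusted p = 0.102, edgeR) or NC replicate 1 (0.0714, edgeR). Of 50 replication genes 32 were lower and 7 higher (median −0.27; 3 higher without the genes of the stretches or without P2-a8 replicate 1, and 4 by DESeq2 or without NC replicate 1), including UHRF1 at −0.69 and PCNA at −0.39. CDKN1A, the inhibitor p21, rose from 99.1 and 97.7 to 182 and 178 CPM (0.87), whereas the p53 targets as a list had 5 of 19 higher (3 outside the raised stretches) and 8 lower. CDKN2C, the inhibitor p18, fell from 62.6 and 69.6 to 27.9 and 28.6 CPM (−1.22), and MYC from 239 and 245 to 177 and 179 CPM (−0.44).

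Housekeeping machinery was called in both directions by small amounts. Of 77 ribosomal protein genes 15 were higher and 17 lower (median −0.03), and these counts ranged from 9 to 25 and from 9 to 27 when single libraries were left out. Ribosome biogenesis had 10 of 35 higher and 6 lower. Of 89 oxidative phosphorylation genes 11 were higher and 30 lower, and without NC replicate 2 the lower count was 19, without NC replicate 1 the higher count was 6. The higher count was 7 without P2-a8 replicate 1 and also 7 without the genes of the stretches. Unfolded protein and amino acid stress genes had 12 of 44 higher and 15 lower, with 7 lower without P2-a8 replicate 1 and 8 without NC replicate 2. NRF2 targets had 12 of 27 higher and 5 lower (3 without P2-a8 replicate 1 or NC replicate 2).

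P2-a8 was next set against the other isoform, P1-a2, in the same line, which asks where the isoforms differ. Here the P2-a8 libraries had the lower doxycycline dose and a higher HNF4A level (37.6 CPM in both against 10.7 and 13 CPM, log2 difference 1.66), so isoform, dose and amount cannot be told apart. Of the genes tested 8090 (46.9%) differed, 4253 (24.7%) higher and 3837 (22.2%) lower in P2-a8. ZC3H12B had no count in P1-a2. Interferon genes were much lower in P1-a2 than in P2-a8: IFI44L stood at 11.3 and 11.5 CPM in P2-a8 and 0.359 and 0.435 CPM in P1-a2 (log2 difference 4.82), MX2 at 6.35 and 5.86 against 0.359 and 0.478 CPM (3.84), and IFITM1 at 8.63 and 12.1 against 0.591 and 0.739 CPM (3.93). NC stood above both, with IFI44L at 35.4 and 41.1 CPM and MX2 at 24.0 and 25.1 CPM. Over the 60 effectors 54 were higher in P2-a8 than in P1-a2 and 2 lower (median difference 1.38), and of 23 MHC class I genes 22 were higher.

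Mitosis genes lay in the same order. P2-a8 exceeded P1-a2 in 50 of 52 of them with none lower (median 0.84). CCNB1 stood at 314 and 315 CPM in P2-a8 and 154 and 156 CPM in P1-a2, below the NC values given above. Ribosomal protein genes went the opposite way, with 0 higher in P2-a8 and 69 of 77 lower, as did ribosome biogenesis, with 0 higher and 31 of 35 lower. Cholesterol synthesis genes were higher in P2-a8 in 21 of 24. Among genes with a mean of at least 5 CPM and groups that do not overlap, the 5 furthest below P1-a2 were APOA2, at 22.0 and 11.5 against 260 and 234 CPM (−3.86), KIAA1614-AS1, at 1.67 and 1.77 against 21.9 and 23.6 CPM (−3.73), RBKS, ribokinase (−2.66), MOGAT3, a triglyceride-building acyltransferase, at 5.53 and 6.37 against 33.4 and 37.8 CPM (−2.59), and LINC00526 (−2.32). APOA1 went against its partner APOA2: it was higher in P2-a8 (35.7 and 35.5 CPM) than in P1-a2 (3.93 and 7.96 CPM, log2 difference 2.56, adjusted p from edgeR 0.0116, then 0.0745 without P2-a8 replicate 1 and 0.0698 without P2-a8 replicate 2). HHLA2 was lower in P2-a8 (27.8 and 29.1 CPM) than in P1-a2 (67.2 and 69.9 CPM). The 2 comparisons with NC share the control libraries, so their values for the 60 effectors (median −0.71 for P2-a8, −1.97 for P1-a2) and for the mitosis genes (−0.53 and −1.31) stand side by side only.

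**Figure D4:**
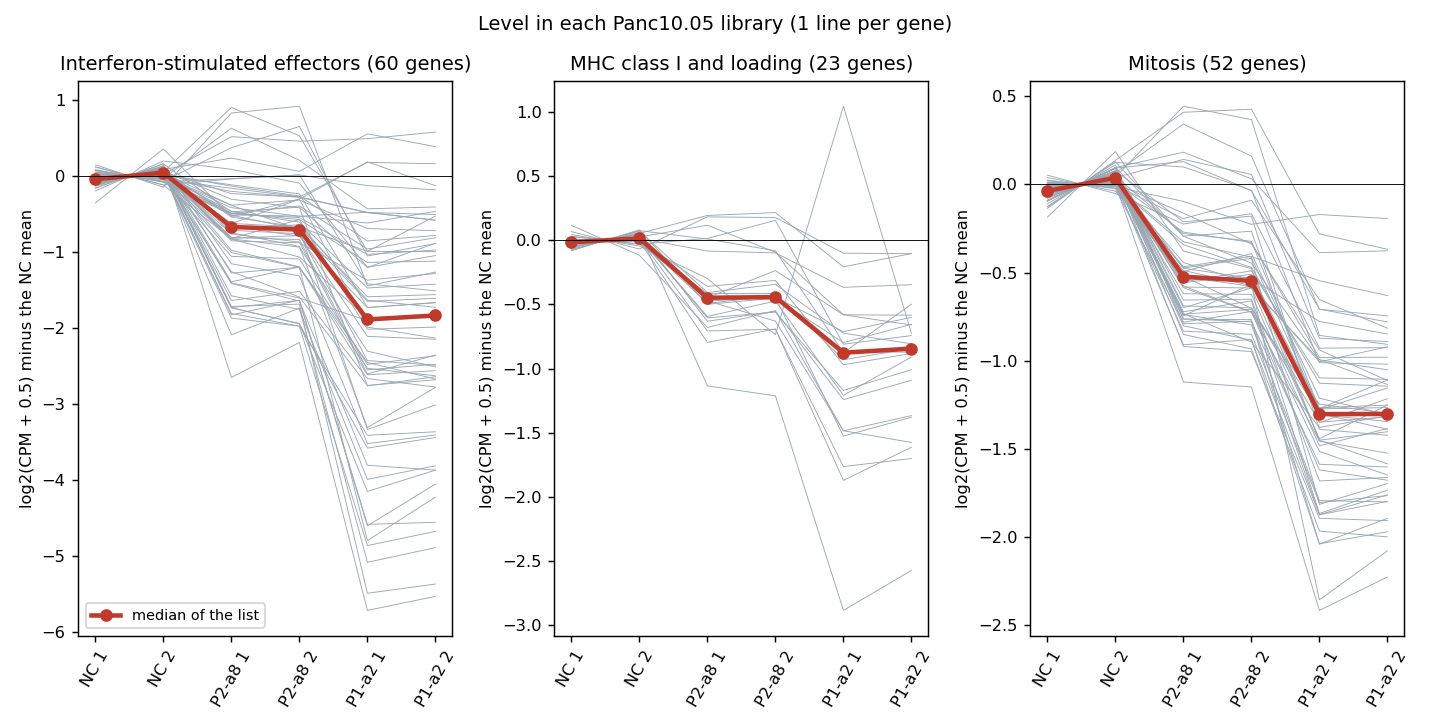
Log2 level of each gene relative to its NC mean (y axis, log2 of CPM plus 0.5) in each Panc10.05 library (x axis) for 60 interferon-stimulated effectors, 23 MHC class I and loading genes and 52 mitosis genes; each point or line is 1 gene and red marks the median. In all 3 groups the P2-a8 libraries lie below NC and above P1-a2, as the list medians against NC show for mitosis (−0.53 for P2-a8 and −1.31 for P1-a2).

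The last comparison asked where the response of Panc10.05 differed from that of BxPC3 to the same isoform, with a test of the difference itself. The lines differed in dose (12.5 and 500 ng/mL), in the control construct, in the number that opens their sample titles and in sequencing depth (26369154 to 36295663 counts in the 4 BxPC3 libraries compared). Their HNF4A level differed too. It was 12.6 and 14.2 CPM in BxPC3 P2-a8 (control 1.08 and 0.464 CPM) and 37.6 CPM in both Panc10.05 P2-a8 libraries (NC 0.240 and 0.0580 CPM). None of these can be told apart from the line. In BxPC3 1232 of 17635 genes tested were called (6.99%), 758 higher (4.3%) and 474 lower (2.69%), a count that fell to 653 without NC replicate 1, 495 without NC replicate 2 and 788 without P2-a8 replicate 2 of BxPC3. It rose to 1982 with no filter on low counts and to 2886 with the replicate number as a block. The response differed between the lines for 4545 of 19372 genes (23.5%), with 2237 (11.5%) more positive and 2308 (11.9%) more negative in Panc10.05. Of 923 genes at least 2-fold higher in Panc10.05 and tested in both lines, 205 (22.2%) were also called higher in BxPC3 and 61 lower, or 269 (29.1%) and 99 with the block. From the other side, 171 (79.9%) of the 214 genes at least 2-fold higher in BxPC3 were called higher in Panc10.05. Among falls, 32 (8.86%) of 361 genes at least 2-fold lower in Panc10.05 were lower in BxPC3 (59, or 16.3%, with the block), and 10 (23.8%) of 42 the other way, where 21 of the 42 were higher in Panc10.05.

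Genes called in both lines at 2-fold or more, in the same direction and with a mean of at least 5 CPM in each, numbered 16, 14 higher and 2 lower. The 14 count HNF4A, which was induced by design in both lines. The other higher genes include VIL1, SLCO2B1 and SELENOP. Also among them were HKDC1, a hexokinase of the gut (13.2 and 13.5 CPM against 1.97 and 2.12 in Panc10.05), METTL7B, a lipid droplet methyltransferase (80.2 and 76.0 against 19.8 and 18.1 CPM), and HMOX1, heme oxygenase (35.4 and 37.6 against 17.6 and 18.5 CPM). In BxPC3 the same 3 rose from 3.05 and 2.87 to 23.2 and 32.7 CPM, from 1.04 and 1.83 to 22.0 and 22.0 CPM, and from 1.97 and 1.89 to 8.87 and 9.58 CPM. The lower pair were IFI27 and IFI44L, both interferon-stimulated.

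Among genes with a mean of at least 5 CPM over the libraries of that fit and groups that do not overlap in Panc10.05, the largest differences included genes near 0 in one control and expressed in the other. TRIM31, a ubiquitin ligase of the gut, measured 1.56 and 1.75 CPM with no NC count in Panc10.05 (at least 20.8-fold higher), and 14.1 and 13 CPM against 12.9 and 15.8 CPM in BxPC3. FBLN1, a matrix protein, was at least 9.40-fold higher in Panc10.05, and in BxPC3 measured 66.0 and 61.6 CPM against 72.8 and 74.1 CPM. DSG3, a desmosomal cadherin (at least 4.10-fold, adjusted p 0.0756 by DESeq2 for the rise in Panc10.05), and KIRREL1, a slit diaphragm protein (at least 2.94-fold), were likewise low in Panc10.05, while in BxPC3 DSG3 measured 236 and 245 CPM against 213 and 224 CPM and KIRREL1 66.4 and 69.6 CPM against 66.7 and 68.0 CPM. C3 rose in Panc10.05 and fell in BxPC3, from 112 and 109 to 30.7 and 29.1 CPM, a log2 difference of 5.43. On the other side, ANPEP, the brush border aminopeptidase, rose from 0 and 0.0819 to 51.0 and 49.4 CPM in BxPC3 but measured 0.299 and 0.197 CPM against 0.0721 and 0.0580 CPM in Panc10.05. That Panc10.05 difference (adjusted p = 0.0235, edgeR's quasi-likelihood test) did not pass by DESeq2 (0.0622) or without P2-a8 replicate 1 (0.186), NC replicate 1 (0.0688) or NC replicate 2 (0.0872). SERPINA1 stood at 14.3 and 13.5 CPM against 0.223 and 0.164 CPM in BxPC3 (log2 difference between lines −6.37). MUC3A, a gut mucin with close relatives, rose by 0.99 in Panc10.05 and by 5.02 in BxPC3. FAXDC2, a protein with a fatty acid hydroxylase domain, fell in Panc10.05 and rose by 3.97 in BxPC3.

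By group, the differences ran as follows. Of 52 mitosis genes 36 were more negative in Panc10.05 and 0 more positive, and in BxPC3 1 was higher and 0 lower. Of the 60 interferon effectors 25 were more negative and 7 more positive in Panc10.05, and in BxPC3 27 were lower and 0 higher (median −0.35). Of 23 MHC class I genes 15 were more negative and 0 more positive. For brush border genes the response was more positive in Panc10.05 in 7 and more negative in 6, and in BxPC3 14 of 29 tested were higher and 0 lower (median 1.02).

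**Figure D5:**
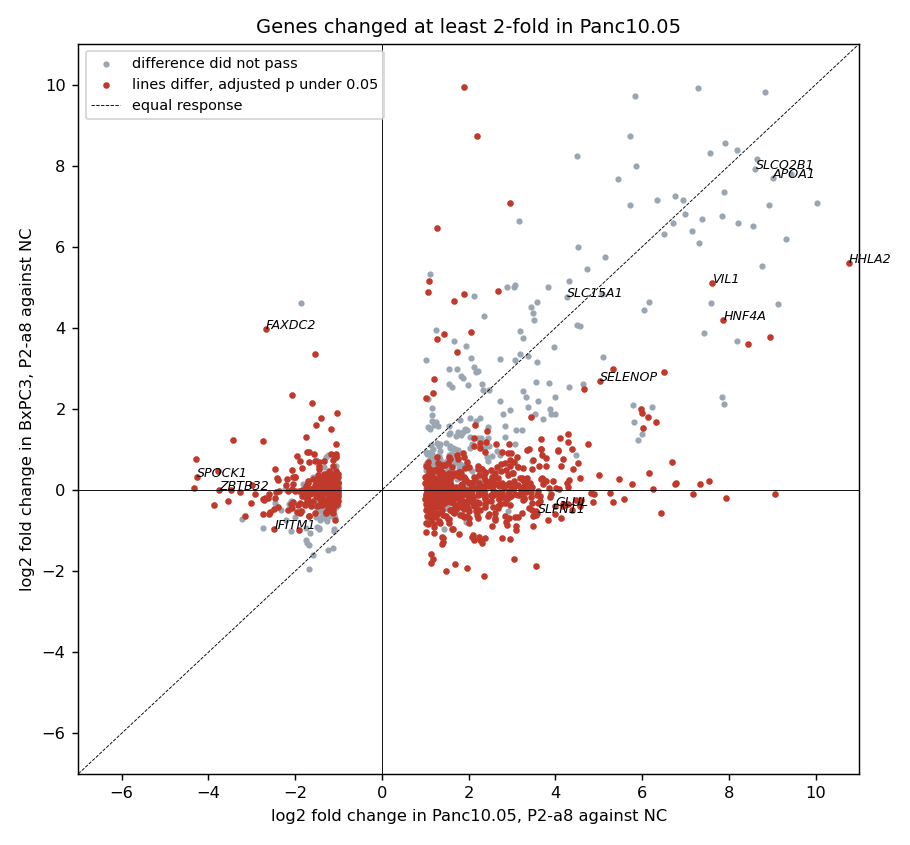
Log2 fold change of P2-a8 against control in Panc10.05 (x axis) and in BxPC3 (y axis) for genes called at 2-fold or more in Panc10.05 and tested in both lines; 1 point per gene, red where the difference between lines passed an adjusted p of 0.05, dashed line where both are equal. Most of the points lie near 0 on the BxPC3 axis (median 0.16 for the 923 higher genes), and 585 of the 923 higher and 258 of the 361 lower genes differed between the lines.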

How the data were processed

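Polyadenylated RNA was sequenced in paired-end reads from Panc10.05 (P2-a8, NC and P1-a2, 2 libraries each) and BxPC3, with AsPC-1 not analysed here. The deposited values are whole-number gene counts of the authors; the submitters' processing notes name cutadapt 1.16, STAR 2.7.9a, featureCounts 1.6.3, DESeq2 1.36.0 and GRCh38. The strand setting and annotation used for counting are not given in the sources used here, so overlapping genes may share reads. Of 62703 identifiers 99.88% matched a symbol, and 58279 had a GENCODE v29 position.

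Low-count genes were removed with filterByExpr, libraries were scaled by TMM, and edgeR 4.0.16 (R 4.3.3, limma 3.58.1) fitted the quasi-likelihood model with robust dispersions. The 6 Panc10.05 libraries shared one fit, and 12 libraries of both lines shared another for the difference between lines. The SE is the absolute log2 fold change divided by the square root of F. A group at or under 3 counts in every library gives "at least" folds against 3 counts per library. Tables and figures were made with Python 3.11.15, pandas 2.3.3, numpy 2.4.6 and matplotlib 3.10.9. Sequences came from the RefSeq promoter table of GRCh38.p14.

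The named genes were the 15 largest rises and the 15 largest falls among called genes with a symbol, a mean of at least 5 CPM and groups that do not overlap, the 5 in each direction for each other comparison, HNF4A, HNF4G and HNF4A-AS1, and list members; a few of these genes are not reported here. The 35 gene lists, 8 marker lists and members were chosen with earlier results of these data known. On counts simulated for P2-a8 against NC (16182 genes) the fit called 97% of genes changed 2-fold, 100% of those changed 4-fold and 0.0813% of unchanged genes. The changed genes, 100 at each fold, were drawn only from those above 1 CPM in NC, and were far fewer than the genes called in the data. These rates therefore do not cover rises from under 1 CPM, which are 73.1% of the genes at least 2-fold higher. Alternatives were other scalings, no filter, DESeq2 1.42.0, a replicate block, fewer libraries, each library left out, a fold threshold and, chosen after seeing the data, the removal of the genes of the raised stretches. Samples were grouped by title and treatment label. Depth limits low genes most: counting error is large where a gene has few counts.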

Additional observations from a re-analysis of the deposited data

Results flagged for a closer look

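The response to P2-a8 differed between Panc10.05 and BxPC3, by the interaction term of the joint edgeR quasi-likelihood fit, for 4545 genes, and among the named genes the following log2 differences (Panc10.05 minus BxPC3) passed. Of the genes with the largest rises, HHLA2 differed by 5.13, HNF4A by 3.68, VIL1 by 2.49, PDZK1 by 4.10, SELENOP by 2.34, CAPN8 by 2.18, MIR4280HG by 2.89, G0S2 by 3.97, GLUL by 4.40 and SLFN11 by 4.15. The fitted values for genes at or near 0 counts in one control depend on the prior count and are no bounds.

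Of the largest falls, SPOCK1 differed by −4.57, ZBTB32 by −3.76, CGB5 by −3.27, IL7R by −3.12, IGFBP6 by −2.51, EMP3 by −2.49, FAXDC2 by −6.65, RAET1L by −2.44, UPK3B by −2.06, IFITM1 by −1.51, PLEKHA4 by −1.99, HTRA1 by −1.74, LYPD3 by −1.63 and PPM1K by −2.08. Among genes with a mean of at least 5 CPM over all libraries of that fit and groups that do not overlap in Panc10.05, the 5 furthest in each direction were TRIM31 at 8.98, FBLN1 at 7.95, DSG3 at 6.44, KIRREL1 at 6.06 and C3 at 5.43, and ANPEP at −8.06, SERPINA1 at −6.37, MOGAT3 at −4.13 and MUC3A at −4.03, with SPOCK1, given above, as the other.

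Of these differences, 4 did not pass (adjusted p of 0.05 or more, edgeR's quasi-likelihood test) when a single library was left out. HHLA2 gave 0.0609 without BxPC3 NC replicate 2, and G0S2 0.0523 without Panc10.05 NC replicate 2. CAPN8 gave 0.901 without BxPC3 NC replicate 2, where its difference was 0.33. VIL1 gave 0.0513 to 0.166 without either Panc10.05 P2-a8 library, either Panc10.05 NC library or either BxPC3 NC library.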

How the results depend on the processing

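Over 161 named genes and their 1607 alternative values, 1591 kept direction and side of the threshold, 16 no longer passed (APOA2, APOB, DSG3, ANPEP, SERPINA1, PCK1, KIF14 and MKI67, as given above) and 0 reversed. Against P1-a2, 128 of 130 values for 13 genes kept their call (not those of APOA1), and for the difference between lines 453 of 462 for 33 genes. The count of 7973 genes for P2-a8 against NC stayed within 1.5 times under other scalings (7953 and 7981), DESeq2 (6735), no filter (7537), 4 libraries alone (7740) and each library left out (6460 to 7172). A test against a 2-fold change, stricter by construction, called 753 (601 higher, 152 lower), and without the genes of the raised stretches 6969 were called, with 44.9% higher against 51.3%. The BxPC3 count of 1232 was 1982 with no filter and 495 to 927 with a library left out, and the cause was not tested. Scaled by total counts alone, BxPC3 had 659 higher and 614 lower genes. The share of promoter windows with CAAAGTCCA was 1.53% at 2-fold and 0.582% without a fold limit. With the replicate block, 7781 genes were called for P2-a8 against NC, 7857 against P1-a2, 5444 for the difference between lines and 2886 in BxPC3. Replicate numbers did not pair the samples in Panc10.05: same-numbered libraries deviated with correlations of −0.018, 0.023 and 0.029 over 13082 genes. In BxPC3 they deviated together (correlations of 0.313, 0.176 and 0.322 over 13824 genes), but with 2 numbers and no label naming a shared culture or day the pairing was not established, and the cause was not tested. For lists, 455 of 473 counts of higher genes and 429 of 473 counts of lower genes stayed within 1.5 times, while 79 of 473 medians moved by more than the spread between libraries.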

Other observations

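A pair of the genes that had no count in NC also had none in any other library of the comparison's lines. LINC01813, a long non-coding RNA (chromosome 2, 56077417 to 56090382), measured 6.5 and 7.69 CPM in P2-a8 and was at least 89.2-fold higher. ZC3H12B behaved alike at its locus on chromosome X. Their neighbours within 500 kb did not show that pattern: beside ZC3H12B, LAS1L measured 70.7 and 70.0 CPM against 106 and 112 CPM, and beside LINC01813, CCDC85A measured 0.256 and 0.366 CPM against 0.288 and 0.406 CPM. LINC01813 lies in the raised stretch of chromosome 2, and its neighbours PPP4R3B (129 and 127 CPM against 92.2 and 85.4 CPM) and PNPT1 (88.4 and 84.2 CPM against 73.4 and 68.6 CPM) were called higher. The other tested neighbours there, CCDC85A included, were not called.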
